A study of Mus musculus with 11 samples.

Results

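Neurexins are presynaptic membrane proteins that reach across the synaptic cleft and bind neuroligins, their best known postsynaptic partners. Each neurexin gene is read from separate promoters into a long alpha and a short beta form and is heavily spliced, and in rodents neuroligin 1 is found mainly at excitatory synapses, neuroligin 2 mainly at inhibitory synapses and neuroligin 3 at both. The hypothalamus, where GABA and glutamate neurons control hormone release, feeding and sleep, holds both kinds of synapse. The 5 genes described here are the neurexins Nrxn2 and Nrxn3 and the neuroligins Nlgn1, Nlgn2 and Nlgn3, chosen by name among 14864 genes of the deposited expression table. All 5 passed the filter on low values that kept 13184 genes.

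RNA was sequenced from the hypothalamus in 6 libraries labelled Het and 5 labelled WT for Myt1l, a gene for a zinc finger protein that regulates transcription in neurons. The Het group had 3 females and 3 males and the WT group 2 females and 3 males, all aged 60 to 70 postnatal days. Each library has its own identifier, and the labels do not state whether animals were pooled. The labels do not describe the mutated allele or the strain, and name no other allele or treatment. The question was which transcripts differ between the genotypes.

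Values are CPM, that is, counts scaled library by library, after a correction by the authors for unwanted variation. All libraries had the same upper quartile (5.473 on the log2 scale), but not the same total. Totals after the correction were 22921048 to 23799167 counts in Het libraries and 23701175 to 24941704 counts in WT libraries. A single corrected count was worth 0.04174 to 0.04225 CPM, so summed CPM also differed between libraries. Myt1l itself did not separate the groups, at 76.3 ± 26.9 CPM in Het and 76.3 ± 15.9 CPM in WT (SD, n = 6 and 5; limma adjusted p = 0.976). The library labelled Het replicate 9 had 130.0 CPM, against 58.7 to 75.9 CPM in the remaining 5. The library labelled WT replicate 11 had 51.1 CPM, against 70.5 to 89.3 CPM in the remaining 4. Groups are kept as labelled, every direction below is that of the labels, and results are also given without these 2 libraries. Of 10 hypothalamic marker genes, 4 fell in the libraries labelled Het (Hcrt, Pmch, Avp and Oxt). Of 14 striatal markers, 8 rose, and all 14 had a positive difference. The summed hypothalamic markers were 1758 to 2906 CPM in Het and 2564 to 3513 CPM in WT. The summed striatal markers were 2104 to 3822 CPM in Het and 1847 to 2343 CPM in WT.

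Nrxn3 and Nlgn3 rose in the libraries labelled Het, by 1.20-fold and 1.29-fold. Nlgn2 was 1.25-fold higher and Nlgn1 1.12-fold higher but missed the adjusted threshold, and Nrxn2 was at 0.984-fold. So 2 of the 5 genes passed, while 2.3% of all genes tested rose and 3.44% passed in either direction (limma on log2(CPM + 0.5) with sex as a term, Benjamini-Hochberg adjusted p under 0.05 over 13184 genes). Of the 5 differences, 4 were positive, against 47% of all genes. The 5 genes were chosen with earlier results of these data known, so these shares are no independent test. All 5 genes are in the longest quartile of transcripts, where 76.2% of differences were positive and 6.43% of genes passed. The authors' correction had already taken residual variation out, which makes the adjusted p-values smaller than they should be. With 1 residual degree of freedom taken off, none of the 5 passed, and the adjusted p was 0.0623 for Nlgn3 and 0.0758 for Nrxn3. In bulk tissue, fewer cells of a type and less RNA per cell cannot be told apart.

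**Figure D1:**
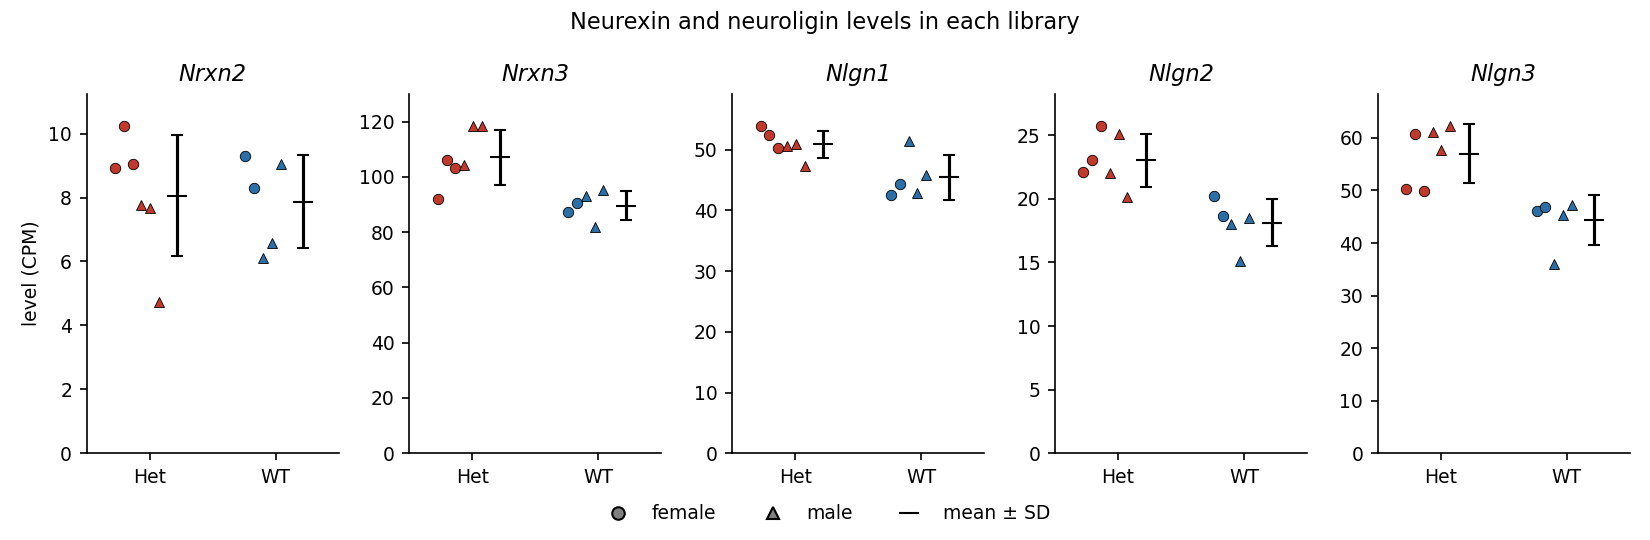
Level in CPM (vertical axes, each from 0) of the 5 genes in each library, Het left of WT, circles for females and triangles for males, with the group mean ± SD beside the points. All 6 Het values of Nlgn3 lie above all 5 WT values, Nrxn3, Nlgn1 and Nlgn2 overlap in part, and Nrxn2 overlaps throughout.

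Nrxn3, which binds neuroligins and other postsynaptic ligands from the presynaptic side, was the most abundant of the 5. The gene (ENSMUSG00000066392) spans 1612.1 kb of mm10 chromosome 12 from 88722876 to 90334935 on the plus strand. Its level ran from 92.1 over a median of 105.1 to 118.3 CPM in the libraries labelled Het, and was 87.4, 90.6, 93.1, 81.9 and 95.1 CPM in WT replicates 4, 6, 3, 7 and 11. Of the 6 Het libraries, 5 were above the highest WT library, and Het replicate 2 lay among the WT values. Means were 107.0 ± 9.96 CPM in Het and 89.6 ± 5.21 CPM in WT (SD, n = 6 and 5). The log2 difference was 0.26 (SE 0.067, 95% interval 0.12 to 0.40, limma adjusted p = 0.041), and the two-sided exact permutation p of genotype within sex was 0.01, where 200 arrangements allow 0.005 at best. Gm37980 overlaps part of its exons on the opposite strand (the strand setting of the counting is not known here).

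The deposited counts add up all forms of Nrxn3, which has several start sites, and those with a RefSeq window are shown here. First, second and last below give the order of these windows. The annotated gene begins at 88722876, upstream of the first window at 88794254, so the windows need not hold every start. RefSeq (GRCm38.p6) gives 3 windows of 300 bases, 250 before and 50 after a start, and they are set beside the only window of Nlgn2, the gene of the 5 with the smallest exact p. Capitals mark AAGTT on either strand, the core that zinc fingers of the MYT1 family are known to bind, and no other motif was searched.
Nrxn3 first start (chr12:88794254-88794553, plus strand): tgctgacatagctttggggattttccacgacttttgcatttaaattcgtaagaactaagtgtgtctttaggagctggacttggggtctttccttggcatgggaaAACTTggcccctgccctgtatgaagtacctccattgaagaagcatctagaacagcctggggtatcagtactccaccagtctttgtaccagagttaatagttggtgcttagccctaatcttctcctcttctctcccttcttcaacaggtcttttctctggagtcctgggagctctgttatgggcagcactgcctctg
Nrxn3 second start (chr12:88953140-88953439, plus strand): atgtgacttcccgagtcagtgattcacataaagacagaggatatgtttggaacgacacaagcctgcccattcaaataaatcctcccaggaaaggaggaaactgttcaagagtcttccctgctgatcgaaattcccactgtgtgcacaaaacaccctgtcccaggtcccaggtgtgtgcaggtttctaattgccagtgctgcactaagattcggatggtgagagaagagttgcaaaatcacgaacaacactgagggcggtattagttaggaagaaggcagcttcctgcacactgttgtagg
Nrxn3 last start (chr12:89812233-89812532, plus strand): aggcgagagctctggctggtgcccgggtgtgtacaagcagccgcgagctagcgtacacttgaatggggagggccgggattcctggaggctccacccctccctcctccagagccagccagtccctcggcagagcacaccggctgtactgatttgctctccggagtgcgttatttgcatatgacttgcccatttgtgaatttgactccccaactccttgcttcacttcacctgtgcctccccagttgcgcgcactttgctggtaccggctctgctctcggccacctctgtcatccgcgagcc
Nlgn2 start (chr11:69837735-69838034, minus strand): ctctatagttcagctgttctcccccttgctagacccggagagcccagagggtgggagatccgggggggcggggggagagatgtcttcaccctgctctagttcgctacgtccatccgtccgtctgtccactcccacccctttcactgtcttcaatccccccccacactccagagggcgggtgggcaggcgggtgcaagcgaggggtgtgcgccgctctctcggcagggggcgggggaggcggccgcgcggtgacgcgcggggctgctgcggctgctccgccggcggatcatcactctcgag
The first Nrxn3 window holds 1 match, beginning at base 105 from its 5′ end, and the other 3 windows shown hold 0. In all, 2 of 6 windows of these genes held the core, and the second start of Nlgn1 was the other window with a match. Of all 32851 windows in the table, 39.3% held it. GC content was 68.7% in the Nlgn2 window and 60.7% in the last Nrxn3 window, against 47.3% and 47.7% in the first and second. Nrxn2 and Nlgn3 were not matched to a window.

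Nrxn2, the other neurexin, was the least abundant of the 5 and did not separate the groups. The gene (ENSMUSG00000033768) lies on chromosome 19 from 6418731 to 6544169 on the plus strand, and Slc22a12 and Gm14964 overlap its exons on the opposite strand. It had 4.74, a median of 8.34 and at most 10.2 CPM in the libraries labelled Het, and 9.31, 8.31, 6.12, 6.59 and 9.03 CPM in WT replicates 4, 6, 3, 7 and 11. Every WT value lay within the range of the Het values, whose lowest was Het replicate 9. The log2 difference was -0.023 (SE 0.15, 95% interval -0.34 to 0.29, limma adjusted p = 0.942, exact permutation p = 0.885). That interval runs from 0.790-fold to 1.23-fold, so a change of the size seen in Nrxn3 lies within it. Without the libraries labelled WT replicate 11 and Het replicate 9 the difference was 0.17, with an adjusted p of 0.458. It was 0.096 without Het replicate 9 alone and 0.068 without WT replicate 11 alone.

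Among the neuroligins, Nlgn3, which occurs at excitatory and inhibitory synapses, was the only one of the 5 genes whose groups did not overlap. All Het values lay above all WT values for 2.02% of the genes tested, and below them for 1.33%. The gene (ENSMUSG00000031302) lies on chromosome X from 101299168 to 101325963 on the plus strand. Its level ran from 49.9 over a median of 59.3 to 62.2 CPM in the libraries labelled Het, and was 46.1, 46.9, 36.0, 45.4 and 47.3 CPM in WT replicates 4, 6, 3, 7 and 11. Het replicates 2 and 7, both female, were the Het libraries nearest to WT, and WT replicate 3 stood below the rest of its group. Means were 57.0 ± 5.56 CPM in Het and 44.3 ± 4.73 CPM in WT (SD, n = 6 and 5). The log2 difference was 0.36 (SE 0.089, 95% interval 0.18 to 0.55, limma adjusted p = 0.0354, exact permutation p = 0.015). Exons of Gm21986 overlap those of Nlgn3 on the same strand, so the count of Nlgn3 is uncertain in part.

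Nlgn2, the neuroligin of inhibitory synapses, had the smallest exact p of the 5 genes but missed the adjusted threshold. The gene (ENSMUSG00000051790) lies on chromosome 11 from 69823122 to 69837784 on the minus strand, and no annotated exon of another gene overlaps its exons. It had 20.1, a median of 22.6 and at most 25.7 CPM in the libraries labelled Het, and 20.2, 18.7, 18.1, 15.1 and 18.4 CPM in WT replicates 4, 6, 3, 7 and 11. Only Het replicate 9 and WT replicate 4 crossed, by less than the SD of either group. Means were 23.0 ± 2.09 CPM in Het and 18.1 ± 1.86 CPM in WT (SD, n = 6 and 5). The log2 difference was 0.33 (SE 0.092, 95% interval 0.13 to 0.52, limma adjusted p = 0.0604), and the exact permutation p of 0.005 is the smallest that 200 arrangements can give.

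Nlgn1, the neuroligin of excitatory synapses, had the smallest spread in the libraries labelled Het relative to its mean. The gene (ENSMUSG00000063887) spans 906.2 kb of chromosome 3 from 25426215 to 26332460 on the minus strand, and A830092H15Rik overlaps its exons on the opposite strand. It had 47.3, a median of 50.8 and at most 53.9 CPM in Het, and 42.5, 44.4, 51.5, 42.9 and 45.9 CPM in WT replicates 4, 6, 3, 7 and 11. Of the 5 WT libraries, 4 lay below every Het library, and WT replicate 3 lay among the Het values. Means were 50.9 ± 2.21 CPM in Het and 45.4 ± 3.65 CPM in WT (SD, n = 6 and 5). The log2 difference was 0.17 (SE 0.069, 95% interval 0.019 to 0.31, limma adjusted p = 0.17, exact permutation p = 0.03). Without WT replicate 3 it was 0.21, with an adjusted p of 0.0641.

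Neither Nlgn3 nor Nrxn3 passed in every subset of the libraries. Without both libraries in doubt the log2 difference of Nlgn3 was 0.36 (limma adjusted p = 0.0796) and that of Nrxn3 0.25 (limma adjusted p = 0.09), so neither passed. In the same run Nlgn2 had 0.37 (limma adjusted p = 0.0759) and Nlgn1 0.19, and neither passed. Nlgn3 did not pass without Het replicate 4 (0.34), 5 (0.34), 8 (0.36) or 9 (0.34) or without WT replicate 4 (0.39), 6 (0.40) or 7 (0.37). Nrxn3 did not pass without Het replicate 4 (0.25), 5 (0.28), 7 (0.26), 8 (0.24) or 9 (0.24) or without WT replicate 4 (0.27), 6 (0.29) or 7 (0.22). Over the 11 such runs the adjusted p of Nlgn3 ran from 0.0295 to 0.0844 and that of Nrxn3 from 0.0316 to 0.104. Identifier prefixes in the descriptions split the libraries into 14308, with 2 Het and 2 WT males, 14309, with 4 Het and 2 WT, and 14111, with 1 WT, and the labels do not say what a prefix is. Within prefix 14308 the differences were 0.55 for Nlgn3, 0.49 for Nlgn2, 0.35 for Nrxn3, 0.26 for Nrxn2 and 0.11 for Nlgn1. Within prefix 14309 they were 0.27, 0.24, 0.21, -0.25 and 0.16 in the same order of genes, and no gene of the 5 passed within either prefix. Of all genes tested, 6 passed within prefix 14308 and 16 within prefix 14309. With prefix as a block Nlgn3 passed (0.39, limma adjusted p = 0.0481) and Nrxn3 did not (0.27, limma adjusted p = 0.065).

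All 5 genes have long transcripts, and long transcripts as a whole were higher in the libraries labelled Het. The longest annotated transcripts are 11.81 kb for Nlgn1, 8.54 kb for Nlgn3, 7.92 kb for Nrxn3, 6.67 kb for Nrxn2 and 5.57 kb for Nlgn2, and all 5 fall in the longest quartile of the genes tested. Over the 3295 genes of that quartile the median log2 difference was 0.13, 76.2% of differences were positive and 6.43% of genes passed. Over the 3296 genes of the shortest quartile the median was -0.14 and 16.0% were positive. The median deviation of the longest quartile from each gene's mean was 0.029 to 0.10 in Het libraries and -0.13 to -0.023 in WT libraries, with no overlap. Read against this quartile, Nlgn1 lay close to the median of long genes, Nrxn3, Nlgn2 and Nlgn3 above it and Nrxn2 below it. After removal of the library-wise dependence on length and GC content, the differences were 0.19 for Nlgn3 (limma adjusted p = 0.303), 0.10 for Nrxn3 (0.524), 0.23 for Nlgn2 (0.328), -0.021 for Nlgn1 (0.917) and -0.14 for Nrxn2 (0.671), and none passed. Within groups of genotype and sex, the median deviation of the longest quartile had r -0.22 with Nlgn3 and -0.25 with Nrxn3. It had r 0.092 with Nlgn2, 0.54 with Nlgn1 and 0.29 with Nrxn2. The exact permutation p-values of these r, adjusted over 10 relations, were 0.556 or more.

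**Figure D2:**
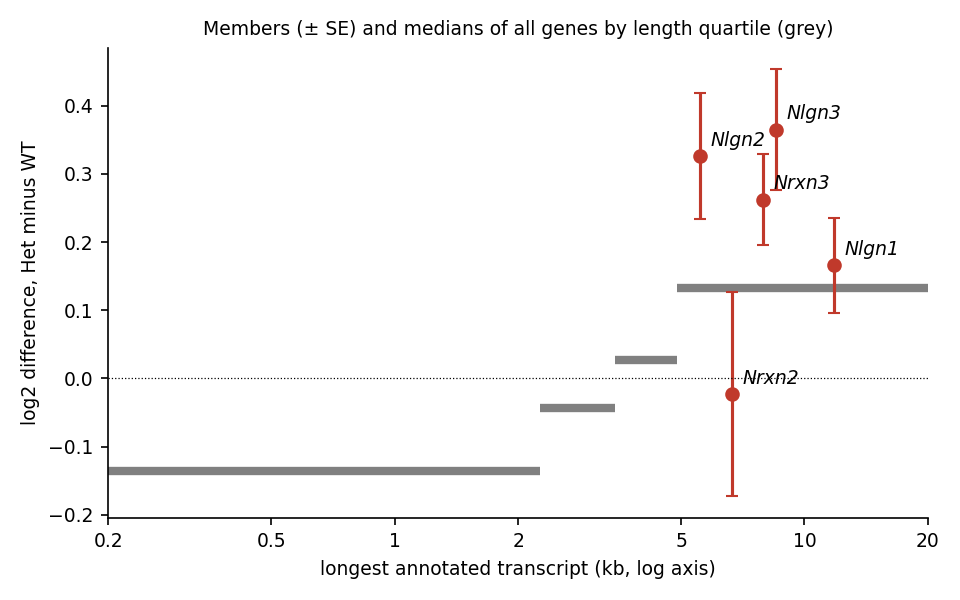
Log2 difference, Het minus WT (vertical axis), of the 5 genes (red points, ± SE) against the length of the longest annotated transcript in kb (log axis), with the median of all tested genes in each length quartile as a grey bar. The bars climb from -0.14 in the shortest to 0.13 in the longest quartile, which holds all 5 genes and runs on past the axis.

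Striatal markers also moved with the genotype, with a median log2 difference of 0.55 over the 14 markers. With the mean of these markers as a covariate the differences were 0.20 for Nlgn3, 0.14 for Nrxn3, 0.39 for Nlgn2, 0.23 for Nlgn1 and 0.082 for Nrxn2. None passed, and of all genes tested 0 passed with this covariate. The mean log2 level of the striatal markers was 5.635 to 6.274 in Het and 5.179 to 5.654 in WT libraries, so it nearly follows the genotype. Within groups of genotype and sex, Nrxn3 and the striatal mean had r 0.52 and rho 0.62 over the 11 libraries (exact permutation p = 0.197 and 0.116, adjusted over 10 relations 0.656 and 0.494), and r was 0.28 without the 2 farthest libraries. For Nlgn3 they were r 0.51 and rho 0.52 (exact permutation p = 0.111 and 0.148, adjusted 0.556 and 0.494), and r was 0.79 without the 2 farthest libraries. Nrxn2 (r -0.19), Nlgn1 (-0.35) and Nlgn2 (-0.17) had a negative r with the striatal mean, with adjusted exact permutation p-values of 0.741 or more. Without the 2 farthest libraries r was 0.83 for Nrxn2, -0.18 for Nlgn1 and 0.05 for Nlgn2, so these r depended on few libraries. The part of the striatal markers in these results was not tested further. General neuron markers had a median difference of 0.054, and none of the 8 passed.

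**Figure D3:**
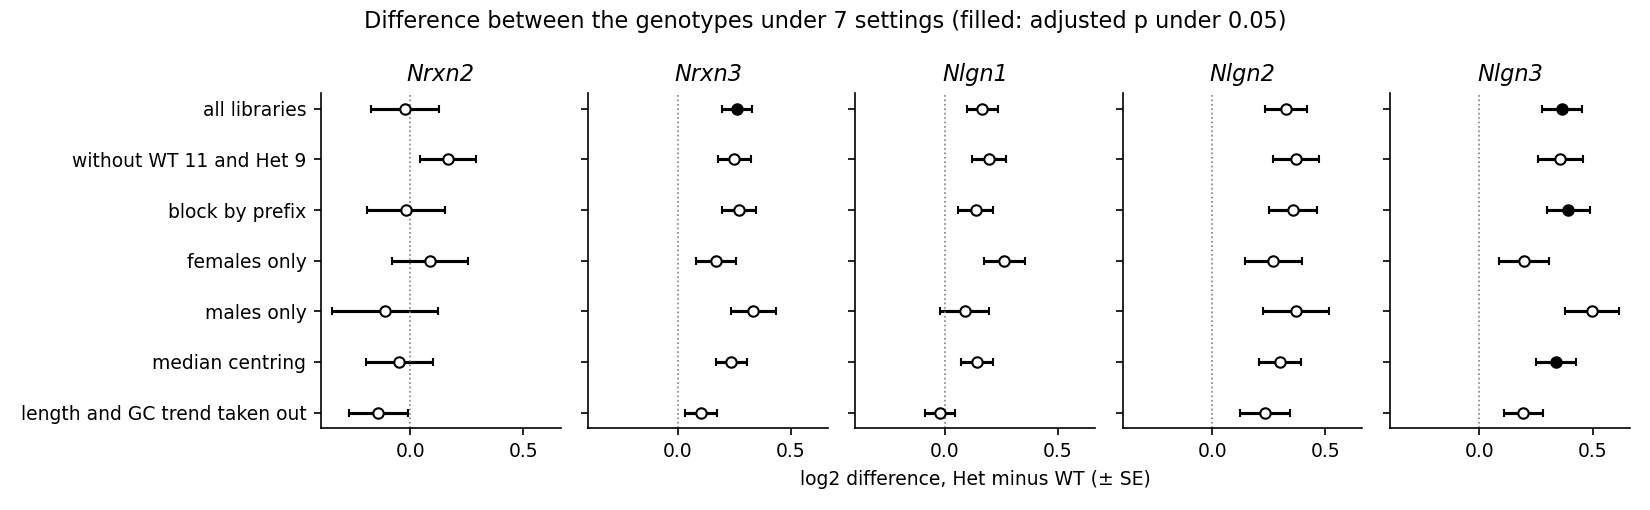
Log2 difference, Het minus WT, ± SE (horizontal axes) of each gene under 7 settings (rows), filled where the limma adjusted p is under 0.05. Nlgn3 and Nrxn3 are filled with all libraries, Nlgn3 also with a block by prefix and with median centring, and all 5 points move left after length and GC adjustment (bottom row).

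Of the 5 genes only Nlgn3 is on the X chromosome. Nlgn3 had 53.7 ± 6.20 CPM in female and 60.4 ± 2.31 CPM in male Het libraries (SD, n = 3 each), and 46.5 ± 0.593 CPM in female and 42.9 ± 6.05 CPM in male WT libraries (SD, n = 2 and 3). Its female minus male difference over both genotypes was -0.040 on the log2 scale (SE 0.089, 95% interval -0.23 to 0.15, limma adjusted p = 0.889). Nrxn2 had the largest sex difference of the 5 genes, with 9.17 ± 0.701 CPM in females and 6.98 ± 1.50 CPM in males (SD, n = 5 and 6). It was 0.39 on the log2 scale (SE 0.15, limma unadjusted p = 0.018) and did not pass (limma adjusted p = 0.298). Between the sexes 12.2% of all genes tested had an unadjusted p under 0.05 (limma). None of the 5 passed between the sexes, where 0.197% of all genes did. Het minus WT for Nlgn3 was 0.20 (SE 0.13) in females and 0.50 (SE 0.11) in males, and for Nrxn3 0.17 (SE 0.098) and 0.34 (SE 0.088). Nlgn1 had 0.26 (SE 0.10) in females and 0.088 (SE 0.090) in males. The difference between the sexes was -0.30 for Nlgn3 (95% interval -0.66 to 0.059), -0.16 for Nrxn3 (-0.45 to 0.12) and 0.17 for Nlgn1 (-0.12 to 0.46), all with a limma adjusted p of 0.982. No gene of the table passed this interaction test, while 613 genes (4.65%) had an unadjusted p under 0.05 (limma). Without both libraries in doubt the difference between the sexes was -0.35 for Nlgn3, and the sex difference of Nrxn2 was 0.35 (limma adjusted p = 0.243). The intervals above are wide, and they do not show that the sexes respond alike. Every library of prefix 14308 was male, so differences between the sexes and between the prefixes cannot be fully told apart.

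Levels of the 5 genes are compared with each other per kilobase of the longest annotated transcript. Nrxn3 was highest at 12.5 ± 1.51 CPM per kb (SD over 11 libraries), and Nlgn3 followed at 6.00 ± 0.967, Nlgn1 at 4.10 ± 0.339, Nlgn2 at 3.73 ± 0.571 and Nrxn2 at 1.20 ± 0.243 CPM per kb. The range of Nrxn3 over the 11 libraries did not overlap that of Nlgn3, nor that of Nlgn2 that of Nrxn2. Nlgn3 exceeded Nlgn1 in 10 of 11 libraries, while Nlgn1 exceeded Nlgn2 in only 8 of 11, so the order of these neighbours did not exceed their spread. Per kilobase of the union of exons the order was the same, at 7.86 CPM per kb for Nrxn3 and 0.577 CPM per kb for Nrxn2, but the separations changed. The ranges of Nrxn3 and Nlgn3 then overlapped, although Nrxn3 was higher in 11 of 11 libraries. Nlgn3 exceeded Nlgn1 in 11 of 11 libraries, with overlapping ranges, and Nlgn1 at 3.61 exceeded Nlgn2 at 3.59 CPM per kb in only 6 of 11. The longest transcript of Nrxn2, at 6.67 kb, is far shorter than its exon union of 13.81 kb.

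**Figure D4:**
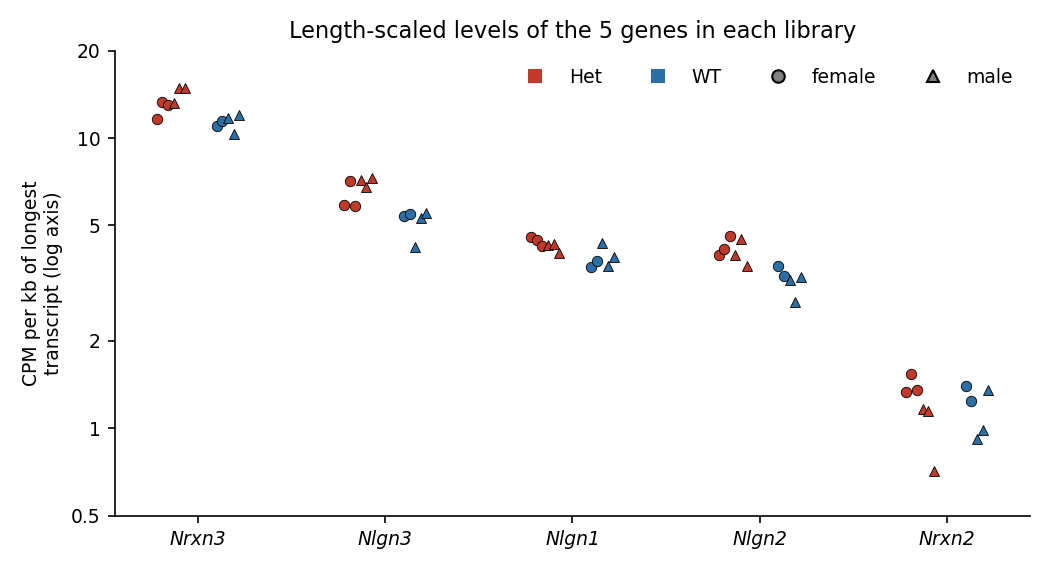
CPM per kilobase of the longest annotated transcript (vertical log axis) of each gene in each library, Het left of WT, circles for females and triangles for males. Nrxn3 stands above and Nrxn2 below the 3 neuroligins in every library, while Nlgn1 and Nlgn2 overlap.

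None of 5 ratios between the genes passed between the genotypes. The summed neuroligins over the summed neurexins were 1.14 ± 0.0770 in Het and 1.11 ± 0.0429 in WT (SD, n = 6 and 5; exact permutation p = 0.435, adjusted over 5 ratios 0.544). Nlgn1 over Nlgn2, the excitatory over the inhibitory neuroligin, was 2.23 ± 0.189 in Het and 2.53 ± 0.319 in WT (exact permutation p = 0.1, adjusted 0.288). The other 3 ratios had adjusted exact permutation p-values of 0.288 to 0.81. Within groups of genotype and sex, no pair of the 5 genes passed a test of correlation, and over the 10 pairs r ran from -0.59 for Nlgn1 with Nlgn3 to 0.56 for Nrxn2 with Nlgn2. All 10 exact permutation p-values adjusted over the pairs were 0.756 or more for r and 0.694 or more for rho. Without the 2 farthest libraries these r were -0.14 for Nlgn1 with Nlgn3 and 0.30 for Nrxn2 with Nlgn2.

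The genes most like each member over the 11 libraries were ranked by Pearson's r of the log2 levels among 12887 tested genes, leaving out the 5 members and genes with predicted-gene names. These r describe the ranking, carry no p-value, and share the genotype difference and the authors' correction. For Nrxn3 they were Pde10a (r 0.955), a phosphodiesterase of striatal neurons, Sel1l (0.951), part of the machinery that removes misfolded proteins from the endoplasmic reticulum, and Atcay (0.934). For Nlgn3 they were Zbtb7a (0.941), a transcriptional repressor, Tmem250-ps (0.933) and Gatad2b (0.928), a subunit of the NuRD chromatin complex. For Nlgn2 they were Ncoa1 (0.965), a coactivator of nuclear receptors, Rasl10b (0.965) and Arhgap6 (0.918). For Nlgn1 they were Crispld1 (0.965), Samd4 (0.943) and Ildr2 (0.932). For Nrxn2 they were St3gal2 (0.940), a sialyltransferase, Chpf (0.923), which builds chondroitin chains, and Hes5 (0.912), a Notch target. Of these 15 genes, Pde10a, Ncoa1, Rasl10b, Tmem250-ps and Gatad2b rose in the libraries labelled Het. Without the 2 libraries farthest from each member's median, r was 0.836 to 0.995.

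Other genes of the pathway were taken from 8 lists by role. Of 79 genes tested, 6 rose, 0 fell and 73 missed the threshold, while 2.3% of all genes tested rose and 1.14% fell. The log2 difference was positive for 59 genes, with a median of 0.10, against -0.016 over all genes. As many as 33 of the 79 are in the longest transcript quartile, and so are 5 of the 6 that rose. Of all genes in that quartile 6.43% passed in either direction and 76.2% had a positive difference. The counts by list that follow are to be read against the same shares. The lists were chosen with earlier results of these data known, so comparing their shares with those of all genes is no independent test. Without both libraries in doubt all of the 6 but Cask passed. Adgrl1, Cask, Flrt2, Lrrc4c and Ntrk3, described next, did not pass within either prefix, within either sex or with the striatal covariate. Of all genes tested, 6 and 16 passed within prefixes 14308 and 14309. In females 0 passed, in males 1, and with the covariate 0.

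Of 21 ligands of neurexins, 1 rose and 20 missed the threshold. The difference was positive for 12, with a median of 0.028. Adgrl1, which encodes latrophilin 1, a receptor that binds neurexins and teneurins, ran from 29.2 over a median of 31.0 to 37.1 CPM in Het and was 23.4, 23.8, 25.0, 24.0 and 26.8 CPM in WT replicates 4, 6, 3, 7 and 11. The groups did not overlap, and the log2 difference was 0.37 (SE 0.081, limma adjusted p = 0.0224). It did not pass without Het replicate 2 (0.36), WT replicate 4 (0.34) or WT replicate 6 (0.35), with a block by prefix (0.34, limma adjusted p = 0.063), or after length and GC adjustment (0.22). The 4 extracellular partners of neuroligins included none that passed. Sparcl1, the astrocyte protein hevin that bridges neurexins and neuroligins, had a log2 difference of -0.13 (limma adjusted p = 0.145), and Mdga1, which keeps neuroligins from binding neurexins, had 0.36 (limma adjusted p = 0.309). Grid1, a delta glutamate receptor that meets neurexins through cerebellins, had 0.027 (limma adjusted p = 0.90).

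Inside the presynapse, 1 of 9 cytoplasmic partners of neurexins rose, 8 did not pass, and the median was 0.19. Cask, a scaffold kinase that binds the neurexin tail, ran from 66.8 over a median of 77.3 to 96.0 CPM in Het and was 62.2, 57.5, 49.97, 72.5 and 58.6 CPM in WT replicates 4, 6, 3, 7 and 11. WT replicate 7 lay among the Het values, and the log2 difference was 0.41 (SE 0.092, limma adjusted p = 0.0256). It did not pass without Het replicate 2 (0.41), 5 (0.41), 8 (0.42) or 9 (0.35) or WT replicate 6 (0.42), without both libraries in doubt (0.34), or after length and GC adjustment (0.24). Inside the postsynapse, all 9 cytoplasmic partners of neuroligins had a positive difference, with a median of 0.19. Of these 9 genes, 7 are in the longest transcript quartile, where 76.2% of all genes were positive and the median was 0.13.

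None of 4 splicing regulators of neurexins passed. Khdrbs3, the protein that sets a splice site of neurexins in the mouse brain, had a log2 difference of -0.092 (limma adjusted p = 0.473), and Khdrbs1 0.083 (limma adjusted p = 0.623). None of 5 proteases passed, among them Mmp2 with -0.51 (limma adjusted p = 0.196) and Adam10, a sheddase of neurexins and neuroligins, with 0.14 (limma adjusted p = 0.238).

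Of 25 other adhesion genes of the synapse tested, 3 rose, 22 did not pass, 22 were positive, and the median was 0.17. Flrt2, a latrophilin and Unc5 ligand, ran from 15.1 over a median of 16.4 to 18.4 CPM in Het and was 11.9, 12.5, 10.8, 9.98 and 11.98 CPM in WT replicates 4, 6, 3, 7 and 11. The groups did not overlap, and the log2 difference was 0.51 (SE 0.10, limma adjusted p = 0.0138). It passed whichever library was left out, and after length and GC adjustment it was 0.38 (limma adjusted p = 0.0935). Lrrc4c, the netrin-G ligand NGL-1, averaged 72.3 ± 9.20 CPM in Het and 56.3 ± 5.23 CPM in WT (SD, n = 6 and 5). Its log2 difference was 0.37 (SE 0.075, limma adjusted p = 0.0151). Lrrc4c was the only one of these 6 genes that passed after length and GC adjustment (0.36, limma adjusted p = 0.0256), and it did not pass without WT replicate 6 (0.36) or without the sex term (0.35, limma adjusted p = 0.0518). Ntrk3, the receptor TrkC that also binds presynaptic PTPσ, averaged 35.3 ± 1.45 CPM in Het and 28.8 ± 2.20 CPM in WT, and its groups did not overlap. Its log2 difference was 0.30 (SE 0.072, limma adjusted p = 0.0336) and 0.061 after length and GC adjustment, and it passed in 3 of the 11 runs without a library, with differences of 0.28 to 0.34. Those 3 runs left out Het replicate 9, WT replicate 3 or WT replicate 11. Ntrk3 also did not pass with a block by prefix (0.28, limma adjusted p = 0.083), with 1 residual degree of freedom taken off (limma adjusted p = 0.073) or without the sex term (0.29, limma adjusted p = 0.0563).

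**Figure D5:**
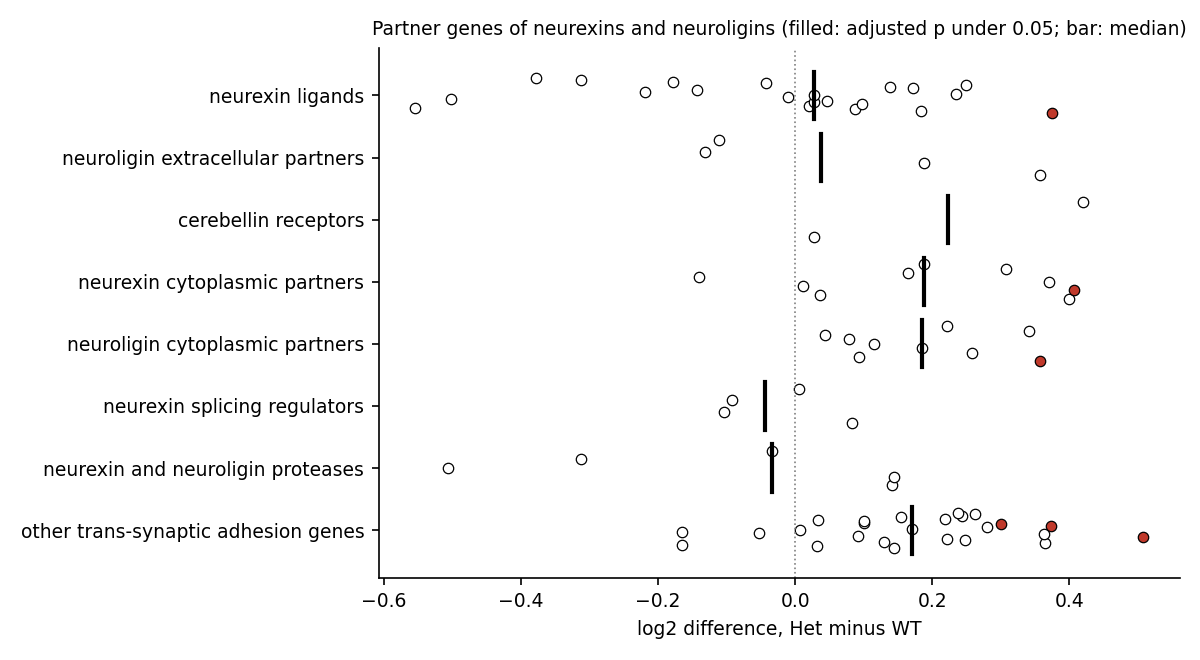
Log2 difference, Het minus WT (horizontal axis), of each tested partner gene by list (rows), filled where the limma adjusted p is under 0.05, with the list's median as a bar. The 6 filled points, all positive, lie between 0.30 and 0.51, and ligands, splicing regulators and proteases spread to both sides of 0.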

How the data were processed

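RNA from mouse hypothalamus was sequenced in 11 libraries. Per the submitters' processing notes, Trimmomatic, Bowtie2, STAR, HTSeq and the mm10 build were used, with versions and strand setting not stated. The deposited values are log2 CPM after a correction for unwanted variation (RUVr, per the name the authors gave the deposited table), which removes residual variation, and the raw depth is unknown. The design had assumed linear CPM, so the values were taken off the log scale and the common floor was subtracted. Totals of corrected counts of 22921048 to 24941704 per library limit the precision of low values.

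Genes with a mean of at least 1 CPM were kept (13184, with 1680 left out), and log2(CPM + 0.5) was fitted in limma 3.58.1 (R 4.3.3) with genotype and sex. P-values were adjusted by Benjamini-Hochberg over all genes tested. Single values were also tested by exact permutation of genotype within sex. The fit was tested on simulated data, where 22.4% of 1.25-fold, 61.2% of 1.5-fold and 84.8% of 2-fold changes between the genotypes were recovered. For the genotype by sex interaction, 1.5%, 11.9% and 40.9% were recovered at the same folds. A difference that did not pass is therefore not shown to be absent. The labels do not say that libraries are separate animals, so p-values measure only the spread between these samples.

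The members and the gene lists were chosen with earlier results of these data known. Named partner genes are those past the threshold in each list, and otherwise the 2 with the smallest p. Transcript lengths, GC content and overlaps came from GENCODE M21 (GRCm38, the same build as mm10). Alternatives changed the pseudocount, filter, scaling, sex term, blocks and libraries. Replicate numbers 4 and 7 occur in both genotypes, but carry different identifier prefixes, so samples were not treated as paired. Some genes that the rule names are counted in the totals but are not reported here.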

Additional observations from a re-analysis of the deposited data

Results flagged for a closer look

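In WT, Nlgn3 of replicate 3 stood apart from the other 4 libraries at 36.0 CPM, with a gap to its neighbour of 0.833 of the whole range, above the critical value of 0.71. In 10 groups of values tested, chance alone flags about 1 in 20. Without this library the log2 difference of Nlgn3, Het minus WT, was 0.29 with a limma adjusted p of 0.0295.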

How the results depend on the processing

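In the comparison of Het with WT, 453 genes and 2 of the 5 members (Nlgn3 and Nrxn3) passed. Leaving out each library in turn gave 140 to 820 genes, the fewest without WT replicate 6 and the most without WT replicate 3, and 0 to 2 members. The counts of genes were 189 with 1 residual degree of freedom taken off, 200 without the sex term, 300 with a block by prefix, 6 within prefix 14308, 16 within prefix 14309, 1 in males, 229 without both libraries in doubt and 176 after length and GC adjustment. They were 0 in females and 0 when the striatal mean was a covariate, where limma gave 1981 and 1925 genes at an unadjusted p under 0.05. Members passing were 1 with median centring, 1 without the sex term and 1 with a block by prefix, and 0 under each of the other settings just named. The alternatives without both libraries in doubt for the interaction and the sexes were chosen after seeing the data. The causes of these changes were not tested. Of the 453 genes 303 were higher, against 233 of 476 with median centring and 362 of 464 with quantile normalization. By exact permutation 4 members had an unadjusted p under 0.05, and 2 did without both libraries in doubt. Exact permutation was not run over all genes. By limma with all libraries, 2938 of all genes tested (22.3%) had an unadjusted p under 0.05.

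With replicate number as a block and no sex term, 46 genes and 0 members passed, and the difference was 0.28 for Nrxn2. Deviations of same-numbered samples correlated at 0.13 for number 4 and -0.092 for number 7. Only these numbers occur in both groups, and the authors' correction had already removed variation, so the correlations cannot decide whether samples are paired.

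Between the sexes 26 genes passed, 10 to 62 without 1 library, 11 with 1 degree of freedom taken off and 17 without both libraries in doubt. Signs turned for small differences. Nrxn2, Het minus WT, was 0.016 without the sex term, 0.26 within prefix 14308, 0.089 in females, 0.17 without both libraries in doubt, 0.082 with the striatal covariate, and -0.072 to 0.096 without 1 library. Nlgn1 was -0.021 after length and GC adjustment. The genotype by sex difference of Nrxn2 was -0.014 to 0.31 without 1 library and -0.17 without both. Female minus male, Nlgn1 was 0.0018 with quantile normalization and -0.030 to 0.032 without 1 library, and Nlgn3 was 0.0086 without both and -0.10 to 0.0010 without 1. Grid1 was -0.0074 with a block by prefix, -0.019 within prefix 14308, -0.043 in males, -0.084 after length and GC adjustment, -0.27 with the striatal covariate, and -0.019 to 0.077 without 1 library. Khdrbs1 was -0.094 within prefix 14308, -0.043 in males and -0.16 with the striatal covariate, where Khdrbs3 was 0.025. Per kilobase of the exon union, levels were 0.577 for Nrxn2, 7.86 for Nrxn3 and 3.61 CPM per kb for Nlgn1.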

Other observations

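Some markers of other cell types passed between the genotypes, where 3.44% of all genes tested passed in either direction. None of the 7 oligodendrocyte, 7 microglial, 5 endothelial, 2 excitatory neuron or 4 tested ependymal and tanycyte markers passed (limma). Gad2, which makes GABA, rose among 3 markers of inhibitory neurons, whose sum was 561.0 to 654.3 CPM in Het and 476.7 to 583.2 CPM in WT. Among 8 astrocyte markers Slc1a2, the main glutamate transporter of astrocytes, rose and Gjb6, a gap junction gene, fell. Gpr17 rose among 5 markers of oligodendrocyte precursors, Tcf7l2 rose among 7 thalamic markers and Rprm fell among 7 markers of cortex and hippocampus. The remaining markers of these lists did not pass, and each list held differences of both signs. Differences were positive for 2 of 3 inhibitory, 3 of 8 astrocyte, 4 of 5 precursor, 4 of 7 thalamic and 4 of 7 cortical and hippocampal markers. The part of these markers in the results for neurexins and neuroligins was not tested.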
